A study of Mus musculus with 6 samples.

Results

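The enzymes that modify and crosslink collagen were followed in explant cells of mouse mammary tumors in which a short hairpin RNA targeted CdGAP. They are 9 genes of the 41214 in the deposited table, taken by gene symbol: the lysyl oxidases Lox, Loxl1, Loxl2, Loxl3 and Loxl4, the lysyl hydroxylases Plod1, Plod2 and Plod3, and the transglutaminase Tgm2. All 9 symbols were found, each in 1 row. The family was put together with the difference between the groups in view, since Loxl2 was known to be present in depleted cells and nearly absent from controls. The comparison for Loxl2 is therefore given as a description with no test, and the counts over the family support nothing about it.

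The cells derive from the mouse mammary epithelial line NMuMG. Both groups expressed Neu-NT, an activated ErbB2 receptor tyrosine kinase. They were grown in the same medium with serum, insulin and the selection drug G418. The depleted cells carried a hairpin against CdGAP (shCdGAP, 3 libraries) and the reference cells a control hairpin (shCON, 3 libraries). CdGAP, encoded by Arhgap31, stimulates GTP hydrolysis by Cdc42 and Rac1, and the study's title names it as a partner of Zeb2 in repressing the E-cadherin gene. The genotype label tells the groups apart, whereas the cell type label reads shCTL for all samples. Whether each population was a clone, and whether the 3 libraries of a group were separate cultures, is not given in the sources used here. The p-values therefore measure variation among these particular libraries, and that variation may be technical.

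Lysyl oxidases are secreted copper enzymes that oxidise lysine and hydroxylysine side chains of collagen and elastin, and the aldehydes that result condense into covalent crosslinks. Lysyl hydroxylases act earlier, in the endoplasmic reticulum, where they hydroxylate lysines of the procollagen chain and so set which crosslinks can form. Tissue transglutaminase joins glutamine to lysine side chains of matrix proteins such as fibronectin. Crosslinking by these enzymes stiffens the stroma around mammary tumors, to which both fibroblasts and tumor cells contribute.

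Libraries held 19176540 to 26824249 reads on genes. Replicate 1 of shCdGAP stood apart: across tested genes its log2 values correlated at 0.948 and 0.938 with shCdGAP replicates 2 and 3, whose correlation was 0.996 (a description across genes, which are not independent). Replicates 2 and 3 of shCdGAP correlated more closely with shCON replicates 2 and 3 (0.955 to 0.958) than with shCdGAP replicate 1. Results are therefore also given without shCdGAP replicate 1 where that matters. Arhgap31 stood between 0.149 and 0.826 FPKM (fragments scaled to gene length and library depth) in shCdGAP libraries, lowest in replicate 1, and between 1.19 and 1.35 FPKM in shCON libraries (adjusted p = 0.0836, limma). The epithelial keratins Krt8 and Krt18 averaged 2487 and 2457 FPKM in shCdGAP and 1997 and 2169 FPKM in shCON, whereas the claudin Cldn7 had 0 reads in all 6 libraries. Of 6 tested epithelial markers, 2 were called, both higher: Cdh1, encoding E-cadherin, averaged 168 ± 16.1 FPKM in shCdGAP and 50.7 ± 11.1 FPKM in shCON (SD, n = 3, log2 fold change 1.73, adjusted p = 0.00220, limma), and Krt7 0.792 FPKM in shCdGAP and 0.264 FPKM in shCON, a call lost in 7 of 14 alternatives (highest adjusted p = 0.128). The summed level of 6 fibroblast markers was 0.192 to 0.586 FPKM in shCdGAP and 0.508 to 0.729 FPKM in shCON, nearly all of it Pdgfra, with Dpt and Thy1 at 0 reads throughout. Likewise, 6 endothelial markers summed to at most 0.0300 FPKM in shCdGAP and 0.304 FPKM in shCON, and 6 leukocyte markers to 0.639 to 1.33 FPKM in shCdGAP and 0.324 to 0.573 FPKM in shCON, with Adgre1 at 0 reads throughout. Among these Itgam was called higher, at 0.221 FPKM in shCdGAP and 0.0334 FPKM in shCON, having entered only through its shCdGAP libraries, a call lost in 4 of 14 alternatives (highest adjusted p = 0.0771). Their part in the results was not tested. In bulk RNA, fewer cells that express a gene and less of its RNA per cell cannot be told apart.

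Before the values, the sequence of Loxl2 sets a limit on its reads. Loxl2 lies on the plus strand of chromosome 14, from 69609068 to 69695834 of GRCm38 (mm10), and an annotated copy, the unprocessed pseudogene Gm21451, lies on the same chromosome and strand from 69390854 to 69480287. Of the 5356 different words of 50 bases in the annotated Loxl2 transcripts, 45.0% also occur in a transcript of another gene, most of them in Gm21451. In turn 84.3% of the words of Gm21451 occur in Loxl2 and 1.80% in no other gene, and Gm21451 had 0 reads in all 6 libraries. How reads that match both places were counted is not given in the sources used here, and Loxl2 reads cannot be told apart from those of its copy over that stretch, and the Loxl2 level relative to other genes is uncertain. By contrast, no word of Loxl4, Loxl1 or Lox transcripts was found in another gene. The lines below show the coding window of 60 bases in which Loxl2 is most like Loxl1, Loxl3 and Loxl4 (Lox was not used here), near the 3′ end of the coding sequence that encodes the catalytic part, and the same stretch of the copy. Capitals mark the 39 positions at which Loxl2, Loxl1, Loxl3 and Loxl4 have the same base. The sequences are from GENCODE M21 transcripts.
Loxl2: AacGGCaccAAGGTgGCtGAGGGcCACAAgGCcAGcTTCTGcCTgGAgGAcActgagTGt
Gm21451: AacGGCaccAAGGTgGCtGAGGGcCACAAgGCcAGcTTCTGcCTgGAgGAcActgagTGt
Loxl3: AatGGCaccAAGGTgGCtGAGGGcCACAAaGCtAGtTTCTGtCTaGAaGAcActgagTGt
Loxl4: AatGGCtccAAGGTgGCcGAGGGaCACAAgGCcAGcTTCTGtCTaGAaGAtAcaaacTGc
Loxl1: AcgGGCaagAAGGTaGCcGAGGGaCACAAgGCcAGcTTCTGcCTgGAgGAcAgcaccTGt
The copy matched Loxl2 at all 60 bases, Loxl3 at 53, and Loxl4 and Loxl1 at 48 each. The window spans coding bases 1936 to 1995 of Loxl2 and ends 111 codons before its stop codon, against 109, 108 and 87 codons for Loxl3, Loxl4 and Loxl1. Even in this most alike window the paralogs differ at several bases, whereas the copy does not.

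Loxl2, a lysyl oxidase that acts on basement membrane collagen among other substrates, was at a moderate level in depleted cells and close to the bottom of the measured range in controls. In shCdGAP replicates 1, 2 and 3 the level was 9.51, 10.0 and 9.97 FPKM, based on 1175, 1188 and 1338 reads, against 0.249, 0.209 and 0.221 FPKM in shCON replicates 1, 2 and 3, where 26, 31 and 32 reads were counted. The groups were far apart and each was tight, and replicate 1 of shCdGAP did not stand out here. The control level was low but not 0, since each control library had more than the 3 reads that a count of 0 would allow. Mean levels were 9.83 ± 0.279 FPKM in shCdGAP and 0.226 ± 0.0207 FPKM in shCON (SD, n = 3), which is 43.4 times as high. Its log2 fold change was 3.14 (SE 0.089) on the log2(FPKM + 1) scale, on which differences of scarce transcripts come out smaller, and 5.43 (SE 0.17) on reads with limma-voom. The authors' deposited table gives 5.33 (SE 0.20). On the first scale Loxl2 had the 21st highest value of the 13483 genes tested.

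Loxl4, the most abundant lysyl oxidase in shCON, went the other way. In shCdGAP its order against Loxl2 is not settled, since Loxl2 was the higher of the pair in replicate 1 and its level is uncertain. Its level was 9.31, 11.8 and 15.7 FPKM across shCdGAP replicates 1, 2 and 3, and 25.7, 27.7 and 26.5 FPKM in shCON. All shCdGAP libraries lay below all shCON libraries, and replicate 1 was the lowest. Loxl4 averaged 12.3 ± 3.23 FPKM in shCdGAP and 26.6 ± 1.01 FPKM in shCON (SD, n = 3), and fell by 1.09 on the log2 scale (SE 0.18, 95% interval -1.53 to -0.64, adjusted p = 0.0102, limma). Without shCdGAP replicate 1 the log2 fold change was -0.92 (adjusted p = 0.00204, limma), and without shCON replicate 2 the call was lost (-1.06, adjusted p = 0.0537). The authors' deposited table lists Loxl4 at -1.09 (SE 0.23, adjusted p = 2.22e-05, DESeq2). Loxl4 lies on the minus strand of chromosome 19, from 42593982 to 42612813.

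Loxl3, a paralog on chromosome 6 (83034173 to 83052562, plus strand), was scarce in both groups and lower in depleted cells. Its level was 0.0834, 0.0109 and 0.0288 FPKM in shCdGAP (8, 1 and 3 reads), against 0.531, 0.303 and 0.285 FPKM in shCON (43, 35 and 32 reads). The groups did not overlap, but the shCdGAP values rest on a handful of reads. Loxl3 entered the test only through its shCON libraries, so it could hardly have been tested without being lower in shCdGAP. On the log2 scale it fell by 0.40 (SE 0.081, adjusted p = 0.0199, limma), and the authors' deposited table gives -2.57 (SE 0.53, adjusted p = 1.87e-05, DESeq2). The adjusted p was 0.0780 when shCdGAP replicate 2 was left out, 0.0570 for shCdGAP replicate 3 and 0.0551 for shCON replicate 2, which ends the call each time. The call was kept without shCdGAP replicate 1 (log2 fold change -0.42, adjusted p = 0.0107). Exons of Loxl3 share 535 bases with Htra2, a mitochondrial protease gene on the opposite strand. Htra2 averaged 22.8 ± 3.43 FPKM in shCdGAP and 32.9 ± 3.17 FPKM in shCON (SD, n = 3, log2 fold change -0.52, adjusted p = 0.0502, limma). Since the handling of strand is not given, reads in the shared bases cannot be told apart.

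Lox and Loxl1, the members best known for crosslinking fibrillar collagen and elastin, were at the detection limit. Lox, on chromosome 18, had 1 read in shCdGAP replicate 1 and 1 in shCON replicate 3, and 0 in the other libraries. Loxl1, on chromosome 9, had 1 read in shCdGAP replicate 2 and 0 elsewhere. Neither entered the test, no fold is given, and any difference was not detectable at this depth.

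**Figure D1:**
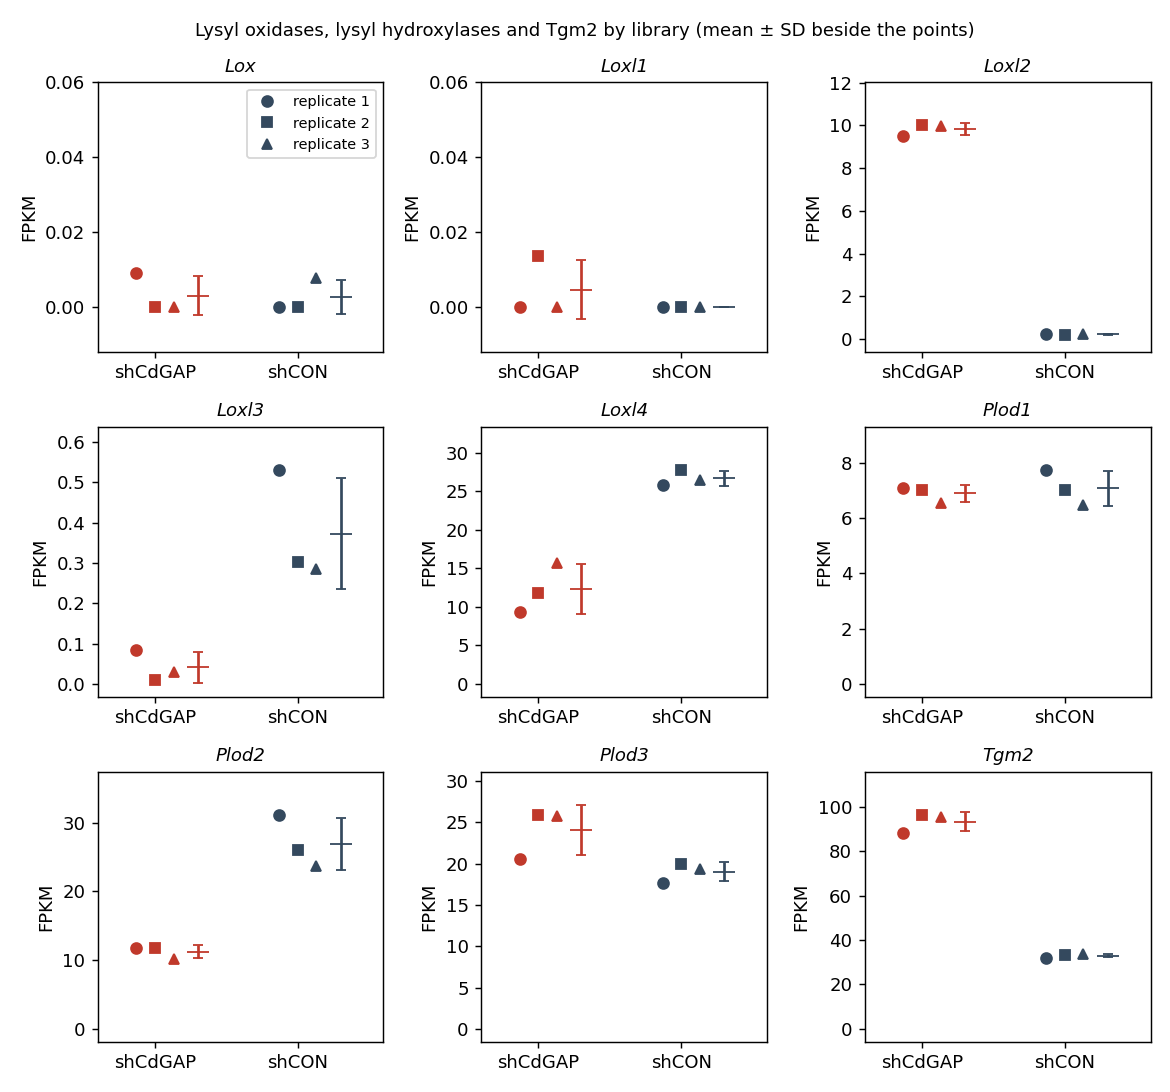
FPKM of each gene by library, with shCdGAP (red) left of shCON (dark grey), 1 marker shape per replicate number, and the mean ± SD (n = 3) beside the points; each panel has its own linear axis. Loxl2, Tgm2 and Plod3 lie higher in all shCdGAP libraries, Loxl4, Loxl3 and Plod2 lower, and Plod1 overlaps.

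The make-up of the lysyl oxidase transcripts is given as a description. Loxl2 was chosen on this contrast, so its higher share in shCdGAP, and with it a lower share of the others, was set in advance. Loxl2 made up 50.3%, 45.9% and 38.8% of the summed lysyl oxidase FPKM in shCdGAP replicates 1, 2 and 3, and 0.939%, 0.738% and 0.820% in shCON. Loxl4 made up 49.2%, 54.0% and 61.1% in shCdGAP, and 97.1%, 98.2% and 98.1% in shCON. The sum itself was 18.9, 21.8 and 25.7 FPKM in shCdGAP replicates 1, 2 and 3, and 26.5, 28.2 and 27.0 FPKM in shCON. These sums and shares take the Loxl2 level as deposited. If reads shared with Gm21451 were not counted, Loxl2 is understated in them, so which group had the higher sum cannot be told.

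**Figure D2:**
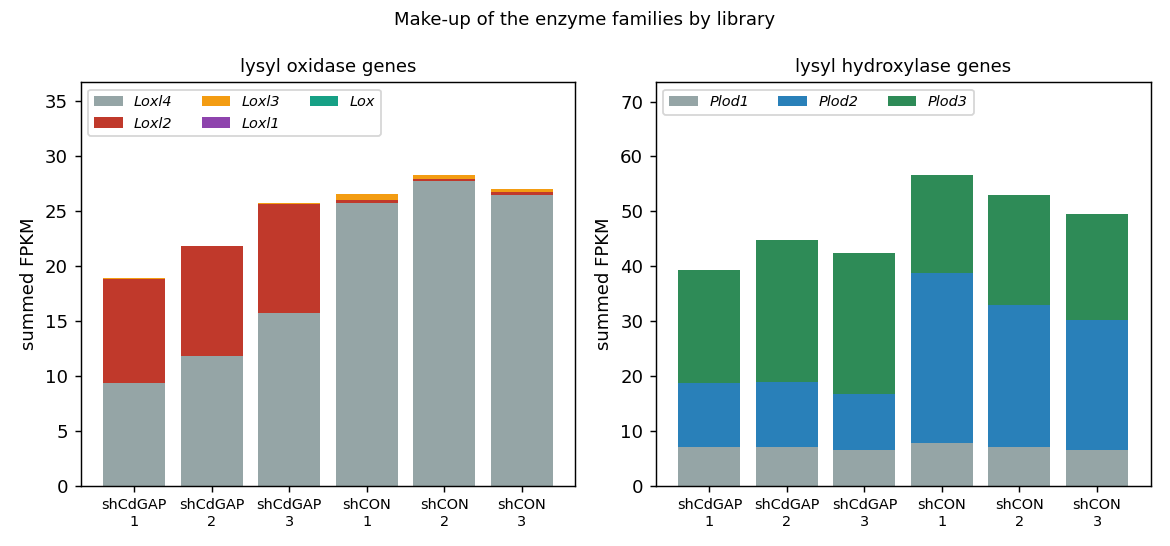
Summed FPKM of the lysyl oxidases (left panel) and lysyl hydroxylases (right panel) in each library, as bars from 0 stacked by gene, with the shCdGAP libraries left of the shCON libraries. Loxl2, which was chosen on this contrast, takes 38.8% to 50.3% of the lysyl oxidase bar in shCdGAP and under 1% in shCON. Plod3 is the largest block of the lysyl hydroxylase bar in each shCdGAP library, Plod2 in each shCON library.

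Among the lysyl hydroxylases 1 of 3 passed the test. Plod2, which hydroxylates lysines in the telopeptides at the ends of collagen chains, had levels of 11.7, 11.8 and 10.2 FPKM across shCdGAP replicates 1, 2 and 3, and 31.1, 26.0 and 23.7 FPKM in shCON. The highest depleted library was below the lowest control. Plod2 averaged 11.2 ± 0.928 FPKM in shCdGAP and 26.9 ± 3.81 FPKM in shCON (SD, n = 3), and fell by 1.19 on the log2 scale (SE 0.13, 95% interval -1.50 to -0.87, adjusted p = 0.00232, limma). The call held in every fit that left out 1 library, with log2 fold changes of -1.27 to -1.08. It lies on the plus strand of chromosome 9, from 92542223 to 92608428, where it shares 346 exon bases with Gm38391, an annotated locus on the opposite strand.

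Plod3 encodes an enzyme that also attaches sugars to hydroxylysine. Plod3 reached 20.6, 25.9 and 25.8 FPKM across shCdGAP replicates 1, 2 and 3, and 17.7, 19.9 and 19.4 FPKM in shCON. The groups did not overlap, with shCdGAP replicate 1 nearest to the controls. The log2 fold change was 0.32 (SE 0.12, 95% interval 0.023 to 0.62) and missed the threshold (adjusted p = 0.121, limma), as it did in the authors' deposited table (0.34, SE 0.16, adjusted p = 0.111, DESeq2). Without shCdGAP replicate 1 it passed (0.43, adjusted p = 0.00744, limma), and it passed without both libraries numbered 1 (0.38, adjusted p = 0.00340). Plod3 shares 529 exon bases with Znhit1 on the opposite strand, which averaged 19.6 ± 2.94 FPKM in shCdGAP and 18.4 ± 1.53 FPKM in shCON (SD, n = 3).

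Plod1, which hydroxylates lysines of the collagen helix, stood at 7.09, 7.01 and 6.55 FPKM in shCdGAP and at 7.73, 7.00 and 6.48 FPKM in shCON. The ranges overlapped. The log2 fold change was -0.031, with a 95% interval of -0.28 to 0.22 (adjusted p = 0.862, limma), so a change of that size or less in either direction was not resolved. The summed lysyl hydroxylase level was 39.4, 44.7 and 42.5 FPKM in shCdGAP replicates 1, 2 and 3, and 56.5, 52.9 and 49.5 FPKM in shCON, and Plod2 averaged 26.7% of it in shCdGAP and 50.6% in shCON.

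Tgm2 was the most abundant of the 9 genes in both groups and rose in depleted cells. Its libraries read 88.4, 96.3 and 95.3 FPKM for shCdGAP replicates 1, 2 and 3, and 32.0, 33.3 and 33.5 FPKM in shCON. Every shCdGAP library was well above every shCON library, and both groups were tight. Tgm2 averaged 93.3 ± 4.32 FPKM in shCdGAP and 32.9 ± 0.815 FPKM in shCON (SD, n = 3), a ratio of 2.83 and a log2 fold change of 1.47 (SE 0.088, 95% interval 1.26 to 1.69, adjusted p = 2.54e-04, limma). The authors' deposited table gives 1.49 (SE 0.10, adjusted p = 1.26e-46, DESeq2). The value was 1.51 without shCdGAP replicate 1. Tgm2 lies on the minus strand of chromosome 2, from 158116402 to 158146436, and shares 370 exon bases with Rprd1b on the opposite strand, which averaged 7.44 ± 1.62 FPKM in shCdGAP and 8.80 ± 0.897 FPKM in shCON (SD, n = 3). A further 633 exon bases are shared with Gm20412, also on the opposite strand, which had at most 1 read in any library. Of the words of 50 bases in Tgm2 transcripts, 18.7% also occur in a transcript of another gene. Reads in the shared bases cannot be told apart, since the handling of strand is not given. Of 9 other transglutaminases listed, 8 were in the table and 2 had enough reads. Tgm5 was called lower at a trace level, 0.0235 ± 0.0303 FPKM in shCdGAP and 0.174 ± 0.0269 FPKM in shCON (SD, n = 3), from 0, 4 and 1 reads in shCdGAP and 9, 15 and 17 in shCON. It entered the test only through shCON, and its call was lost in 7 of 14 alternatives (highest adjusted p = 0.166). Tgm1 averaged 0.103 FPKM in shCdGAP and 0.104 FPKM in shCON.

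In all, 7 of the 9 genes had enough reads for the test. Loxl2, for which no test is given, is left out of the counts that follow. Of the other 6, 4 were called (adjusted p under 0.05, limma), Tgm2 higher and Loxl3, Loxl4 and Plod2 lower. Of all 13483 tested genes, 21.0% were called, with 9.92% higher and 11.1% lower. For 5 of the 6 the libraries of the groups did not overlap, as for 44.1% of all tested genes. The median log2 fold change was -0.21 over the 6 and -0.010 over all tested genes. Because the family was chosen on this contrast and Loxl3 entered through its shCON libraries, nothing is read from these counts. Without shCON replicate 2 neither Loxl3 nor Loxl4 was called, and without shCdGAP replicate 1 Plod3 was called as well.

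**Figure D3:**
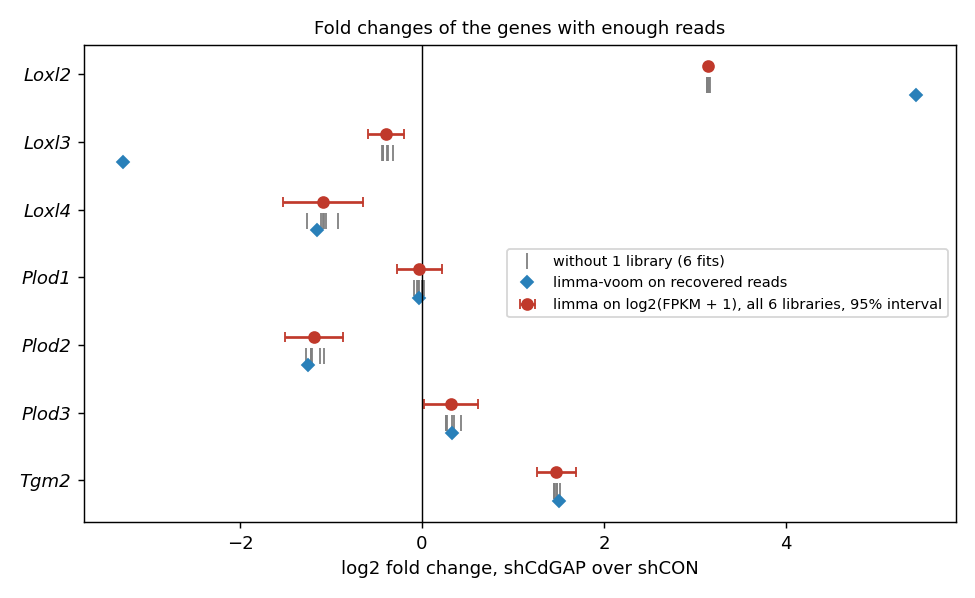
Log2 fold change of shCdGAP over shCON for the 7 genes with enough reads. Red points are the limma estimates on log2(FPKM + 1) with 95% intervals (none drawn for Loxl2, which was chosen on this contrast), grey ticks the 6 fits that leave out 1 library, and blue diamonds limma-voom on reads; the 2 scales part for the scarce Loxl2 and Loxl3, at 3.14 and 5.43, and at -0.40 and -3.28.

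The order of the levels per length differed between the groups. In shCdGAP it ran Tgm2, Plod3, Loxl4, Plod2, Loxl2, Plod1, Loxl3, Loxl1, Lox by mean FPKM. The range of Loxl4 overlapped those of Plod2 and Loxl2, and the range of Loxl1 overlapped those of Loxl3 and Lox. The Loxl2 level is uncertain, and so is its place. In shCON it ran Tgm2, Plod2, Loxl4, Plod3, Plod1, Loxl3, Loxl2, Lox, Loxl1, where the ranges of Plod2 and Loxl4 overlapped, and those of Lox and Loxl1. Among 10329 other genes with a mean of at least 5 CPM (reads scaled to library depth), the 5 whose log2(FPKM + 1) followed Loxl2 most closely over the 6 libraries were Dsg2, Poglut1, D630003M21Rik, Tgm2 and Prr3, with Pearson r of 0.9986 to 0.9995. These libraries fall into the same 2 groups for every gene, so r mainly reflects a difference that is even within each group, whatever its size. Prr3 stood at 4.05, 4.11 and 4.05 FPKM in shCdGAP and at 2.42, 2.32 and 2.44 FPKM in shCON. Of these 5 only Tgm2 belongs to the family, and the other 4 are not collagen enzymes. Since Loxl2 was chosen on this contrast, nothing is read from the likeness.

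The substrates and partners of these enzymes were described from 10 lists of 134 genes, of which 87 were tested and 24 were called. Among all 13483 tested genes the share called was 21.0%, with 9.92% higher and 11.1% lower, and the counts of each list below stand beside these shares. The lists were drawn up with earlier results of the same data known, so nothing is read from their counts. Without shCdGAP replicate 1, 43 of the 87 were called, while the share called among all tested genes was then 39.9%.

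Of 11 fibrillar collagens, the main substrates of Lox, 4 were tested, 0 were higher and 1 was lower, with a median log2 fold change of 0.23. Col27a1, named after its values were seen, had the highest level, 9.40 ± 4.08 FPKM in shCdGAP and 4.92 ± 1.26 FPKM in shCON (SD, n = 3), and did not pass (log2 fold change 0.75, adjusted p = 0.179, limma). Col1a2, Col3a1 and Col11a1 did not exceed 0.00928 FPKM in any library. Col5a1, a chain of the fibril-initiating collagen V, fell to 1.58 ± 0.365 FPKM in shCdGAP, against 5.41 ± 0.588 FPKM in shCON (SD, n = 3, log2 fold change -1.32, adjusted p = 0.00206, limma). Its partner chain Col5a2 stayed at or under 0.0190 FPKM in shCdGAP and had 0 reads in shCON.

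Of 22 basement membrane and other collagens, 13 were tested, 3 were higher and 2 lower, with a median log2 fold change of 0.20. The collagen VI chains Col6a1 and Col6a2 rose together. Col6a1 averaged 41.2 ± 8.76 FPKM in shCdGAP and 8.39 ± 1.87 FPKM in shCON, and Col6a2 4.84 ± 0.902 FPKM in shCdGAP and 1.14 ± 0.321 FPKM in shCON (SD, n = 3, log2 fold changes 2.16 and 1.45, adjusted p = 0.00159 and 0.00312, limma). The third chain, Col6a3, was at 0.0236 FPKM in shCdGAP and 0.128 FPKM in shCON. Col4a2, of the collagen IV network on which Loxl2 acts, fell to 16.6 ± 0.685 FPKM in shCdGAP, against 23.7 ± 0.137 FPKM in shCON (log2 fold change -0.49, adjusted p = 0.0106, limma). Its usual partner chain Col4a1 stood at 29.4 ± 0.588 FPKM in shCdGAP and 26.8 ± 0.264 FPKM in shCON and did not pass (log2 fold change 0.13, adjusted p = 0.330, limma). Leaving out shCdGAP replicate 1 gave 6 higher and 3 lower collagens here. The call on Col4a2 was lost without shCON replicate 2 or 3 (highest adjusted p = 0.0670). Col7a1, the anchoring fibril collagen, fell by 0.73 on the log2 scale (adjusted p = 0.00851, limma).

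Enzymes and chaperones that prepare procollagen moved in both directions, where 15 were tested, 3 were higher and 2 lower, with a median log2 fold change of -0.18. P3h3 and P3h4 are the case of most interest for lysyl hydroxylation, since their products form a complex with the Plod1 enzyme in the endoplasmic reticulum. P3h4 stood at 32.8, 29.9 and 26.8 FPKM in shCdGAP and at 5.66, 7.55 and 7.76 FPKM in shCON (log2 fold change 1.96, SE 0.15, adjusted p = 5.58e-04, limma). P3h3 stood at 0.0334, 0.0116 and 0.0615 FPKM in shCdGAP and at 1.40, 1.64 and 1.46 FPKM in shCON (log2 fold change -1.27, SE 0.067, adjusted p = 1.68e-04, limma). With 3, 1 and 6 reads in shCdGAP, P3h3 entered the test only through its shCON libraries, so it could hardly have been called other than lower. Serpinh1, the collagen chaperone HSP47, averaged 175 ± 23.3 FPKM in shCdGAP and 66.5 ± 1.94 FPKM in shCON (SD, n = 3, log2 fold change 1.37, adjusted p = 9.75e-04, limma). Colgalt1, which adds galactose to hydroxylysine, averaged 86.7 ± 11.4 FPKM in shCdGAP and 50.1 ± 2.28 FPKM in shCON (SD, n = 3, log2 fold change 0.77, adjusted p = 0.00828, limma). Without shCdGAP replicate 1, 4 genes of this list were higher and 5 lower. The prolyl 4-hydroxylase genes P4ha1, P4ha2 and P4hb, named after their values were seen, did not pass (log2 fold changes -0.18, -0.48 and 0.30).

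Of 10 proteinases and enhancers that trim procollagens and activate pro-lysyl oxidase, 5 were tested, 0 were higher and 2 lower, with a median log2 fold change of -0.65. Pcolce, an enhancer of the procollagen C-proteinase, averaged 5.52 ± 0.928 FPKM in shCdGAP and 11.2 ± 0.940 FPKM in shCON (SD, n = 3, log2 fold change -0.91, adjusted p = 0.00641, limma). Adamts14, a procollagen N-proteinase, averaged 0.221 ± 0.182 FPKM in shCdGAP and 0.909 ± 0.0471 FPKM in shCON (SD, n = 3), and its call (log2 fold change -0.65, adjusted p = 0.0108, limma) was lost without shCdGAP replicate 2 or shCON replicate 2 (highest adjusted p = 0.0515). Bmp1, the proteinase that cleaves pro-lysyl oxidase, stood at 17.3, 11.4 and 9.98 FPKM in shCdGAP and at 19.4, 18.0 and 17.4 FPKM in shCON and did not pass (log2 fold change -0.51, adjusted p = 0.131, limma); it is named after its values were seen.

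**Figure D4:**
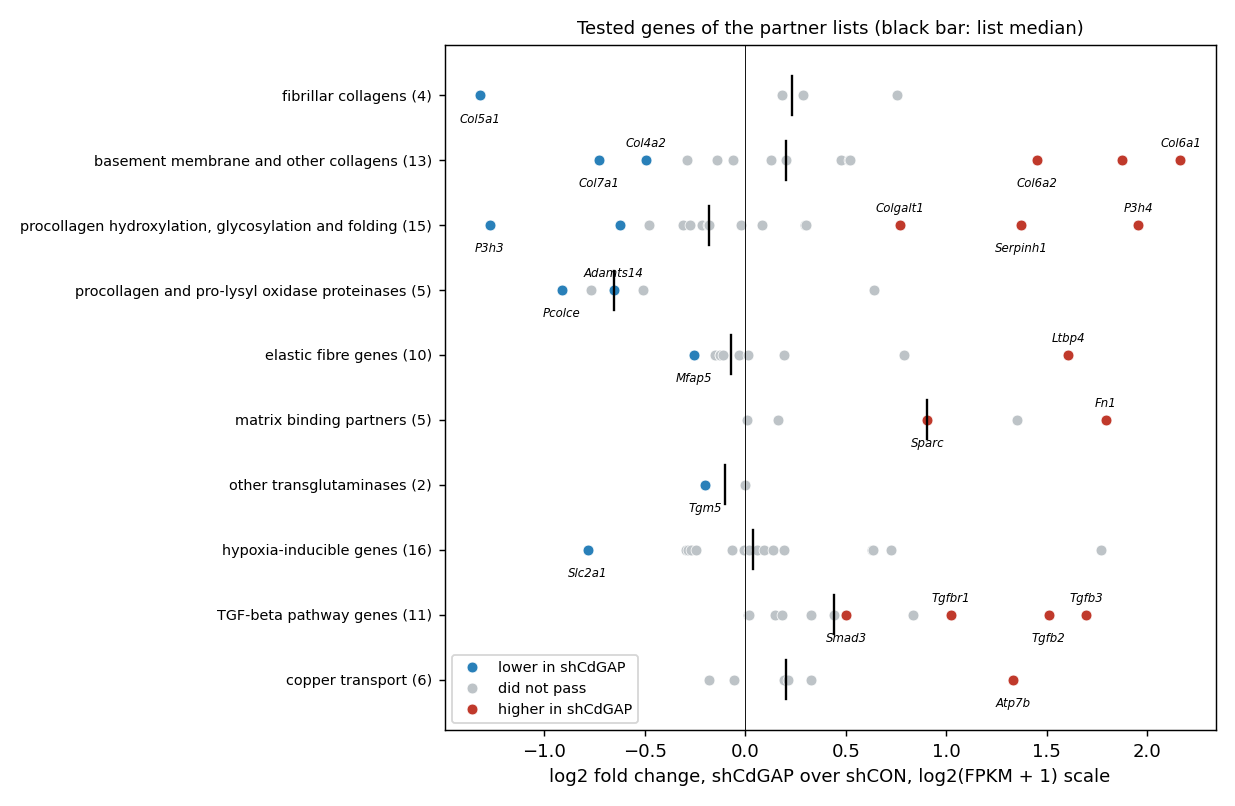
Log2 fold change of shCdGAP over shCON for each tested gene of the 10 partner lists (number tested in brackets), with genes called higher in red, called lower in blue and not passing in grey, and a black bar at each list's median. Red and blue points stand in the same list for collagens, procollagen enzymes and elastic fibre genes.

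Matrix proteins that bind these enzymes or their products had 2 of 5 tested members higher and 0 lower, with a median log2 fold change of 0.91. Fn1, encoding fibronectin, a substrate of Tgm2, stood at 43.9, 39.8 and 34.9 FPKM in shCdGAP and at 13.8, 8.78 and 9.91 FPKM in shCON (log2 fold change 1.79, adjusted p = 0.00172, limma). Sparc, a collagen-binding protein, averaged 263 ± 69.3 FPKM in shCdGAP and 137 ± 17.9 FPKM in shCON (SD, n = 3). Its call (log2 fold change 0.91, adjusted p = 0.0387, limma) was lost in 7 of 15 alternatives, among them each fit without 1 library other than shCdGAP replicate 1 (highest adjusted p = 0.127). Of 10 tested elastic fibre genes 1 was higher and 1 lower: Ltbp4 averaged 7.46 ± 0.466 FPKM in shCdGAP and 1.78 ± 0.249 FPKM in shCON (SD, n = 3, log2 fold change 1.61, adjusted p = 4.17e-04, limma), and Mfap5 was called lower from 1, 0 and 0 reads in shCdGAP and 12, 18 and 23 in shCON. Mfap5 too entered only through shCON, and its call was lost without the trend and robust step (adjusted p = 0.0573, limma). Eln, encoding elastin, did not enter the test.

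Upstream of the enzymes, 4 of 11 tested genes of the TGF-beta pathway, which is known to induce matrix crosslinking genes, were higher and 0 lower. Tgfb2 and Tgfb3, encoding ligands, averaged 2.78 ± 0.448 and 5.24 ± 1.44 FPKM in shCdGAP and 0.320 ± 0.0519 and 0.903 ± 0.201 FPKM in shCON (SD, n = 3, log2 fold changes 1.51 and 1.69, adjusted p = 5.72e-04 and 0.00229, limma). The receptor gene Tgfbr1 rose by 1.02 on the log2 scale (adjusted p = 8.25e-04, limma) and Smad3 by 0.50 (adjusted p = 0.0114, limma), the last call being lost without shCdGAP replicate 2 or shCON replicate 2 (highest adjusted p = 0.0736). The list's median log2 fold change was 0.44.

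Lox, Loxl2 and Plod2 are known to be hypoxia-inducible. Of 16 tested genes of a hypoxia list, 0 were higher and 1 lower, with a median log2 fold change of 0.039. This list also holds Hif1a, Epas1 and Arnt, which encode subunits of the hypoxia-inducible factors themselves, and none of these passed. The glucose transporter Slc2a1 averaged 27.9 ± 4.09 FPKM in shCdGAP and 49.0 ± 11.0 FPKM in shCON (SD, n = 3), and its call (log2 fold change -0.78, adjusted p = 0.0351, limma) was lost in 6 of 15 alternatives, 5 of them without 1 library other than shCdGAP replicate 1 (highest adjusted p = 0.102). Without shCdGAP replicate 1, 2 were higher and 3 lower in this list. Some genes of the list, named after their values were seen, stood apart in shCdGAP replicate 1 in either direction. Ndrg1 was at 59.4, 22.8 and 13.5 FPKM in shCdGAP and 11.1, 5.82 and 5.35 FPKM in shCON. Its groups did not overlap, but it did not pass (log2 fold change 1.77, adjusted p = 0.0699, limma). Bnip3 was at 53.2, 20.4 and 10.9 FPKM in shCdGAP replicates 1, 2 and 3, and at 31.1, 21.7 and 17.2 FPKM in shCON. Pfkfb3 was at 3.39, 5.40 and 5.54 FPKM in shCdGAP and 2.41, 2.82 and 2.75 FPKM in shCON, and its groups did not overlap. Neither Bnip3 nor Pfkfb3 passed (adjusted p = 0.987 and 0.0525, limma). In both groups replicate 1 was the highest for Ndrg1 and Bnip3 and the lowest for Pfkfb3. Of 6 copper transport genes, which supply the metal of lysyl oxidases, Atp7b was higher and 0 were lower. Atp7b stood at 2.04, 1.90 and 1.90 FPKM in shCdGAP and at 0.183, 0.196 and 0.132 FPKM in shCON (log2 fold change 1.33, adjusted p = 1.62e-04, limma). Atp7a, the copper pump that loads secreted enzymes and named here after its value was seen, averaged 3.11 ± 0.655 FPKM in shCdGAP and 2.52 ± 0.177 FPKM in shCON (SD, n = 3) and did not pass (log2 fold change 0.21, adjusted p = 0.346, limma).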

How the data were processed

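Total RNA of 3 shCdGAP and 3 shCON libraries had been sequenced, and groups and replicate numbers follow the sample titles. Per the submitters' processing notes mm10 and the tools TopHat2 2.0.13, Trimmomatic, DESeq2 and featureCounts were used, with no roles given. The authors deposited 1 table of FPKM. Per the file headers, further columns hold the mean signal (normalised reads), the log2 fold change and its SE, the test score, the p-value and the adjusted p. The FPKM had been divided by size factors. Multiplying by the mean signal over the mean FPKM and by 1 fitted factor per library gave whole reads for 100% of values above 0 (tolerance 1e-06), for 22322 genes.

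The 13483 genes tested had 10 or more depth-scaled reads in 3 or more libraries, and a total of 15 or more. The design allowed for raw counts; since the table holds FPKM, limma 3.58.1 (R 4.3.3; trend and robust) on log2(FPKM + 1) was used, 2-sided, with Benjamini-Hochberg adjustment over all tested genes. The steps were run on simulated reads with the same spread for every gene and no library standing apart. That run does not show how they perform with a library such as shCdGAP replicate 1. Named partner genes are up to 4 per list with the smallest p among called genes, or the highest FPKM where none was called. The members and lists were chosen with earlier results of these data known. Same-numbered libraries deviated together from their group means (r across genes 0.432, 0.387 and 0.335 for numbers 1, 2 and 3). Unlike numbers did so too for shCdGAP 2 with shCON 3 (0.354) and shCdGAP 3 with shCON 2 (0.274), so only number 1 stood apart. The fit had no replicate block, and the block was an alternative; the labels state no pairing. Every pair of replicates differed by more than counting noise (chi-square per degree of freedom of at least 3.17, and up to 207 for shCdGAP replicates 1 and 3). Positions and transcripts are from GENCODE M21 (GRCm38), which held 40254 of the identifiers.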

Additional observations from a re-analysis of the deposited data

How the results depend on the processing

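Alternatives covered the replicate block, a pseudocount of 0.1 FPKM, other filters and scalings, limma-voom, a plain empirical Bayes step, and leaving out libraries. The replicate block (pairing by number) changed no call on the 6 tested members other than Loxl2, of which 4 were called with it and without it. With the block 2458 genes were called in all, against 2838 without it. Member counts below include Loxl2, which was chosen on this contrast, so its part in them was set in advance. Leaving out 1 library gave 3 to 6 members, 16 to 43 partner genes and 1237 to 5373 genes in all; the lowest counts were without shCON replicate 2 and the highest without shCdGAP replicate 1. Without both libraries numbered 1, 6 members, 48 partner genes and 6506 genes were called. The cause was not tested. The log2 fold change of Plod1, which never passed, spanned -0.085 to 0.027 with 1 library left out, turning positive without shCON replicate 1, and was 0.0078 without either library numbered 1. With a mean of at least 5 CPM Loxl3 was not tested, which left 4 members called. Depth limits Lox, Loxl1 and Loxl3, and the 3 libraries of a group limit the rest.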
